A study of Mus musculus with 41 samples.

Results

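The genes described here are 39 cell cycle and DNA replication genes, taken as a fixed list of symbols that was chosen with earlier results of these data known. They were matched through GENCODE M21 to rows of both count tables, which hold 55536 gene rows each. All 39 were found and all 39 passed the filter on low counts in both assays. By role they comprise 2 proliferation markers, 4 mitotic cyclin and CDK1 genes, 6 genes of the G1 and G1/S cyclins and CDK2, 6 mitotic kinase and checkpoint genes, 8 spindle and kinetochore genes, 2 partners of the anaphase-promoting complex, 8 replication licensing genes and 3 genes of the sliding clamp and nucleotide supply. The study asked how the X-linked homeobox factor RHOX10 acts in spermatogonial stem cell formation in the mouse.

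RNA-seq compared 4 libraries labelled wild-type (WT) with 4 labelled Rhox10-null (KO). These were testis cells of C57BL/6 animals crossed to an Oct4-eGFP reporter line and sorted for eGFP, with the testes of 3 animals pooled per library. The age of the animals was not given in the sources used here. iSLAM-seq, which sequences the 3′ ends of metabolically labelled RNA after a factor is switched on, used cultured germline stem (GS) cells derived from newborn C57BL/6 testes. All of its cells carried a lentiviral shRNA against endogenous Rhox10 and were sorted on GFP, so the controls were knocked down too. They then received either a Rhox10-ERT2-mCherry fusion ("Rhox10") or the ERT2-mCherry vector alone ("Ctrl"). The fusion responds to 4-hydroxytamoxifen, and each vector had 2 libraries at 0, 0.5, 1, 2, 4 and 8 h, 24 in all. CUT&Tag mapped HA-tagged RHOX10 in GS cells with the same knock-down, in 3 libraries whose merged peaks are used here.

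As background, a cell that will divide first loads the MCM2-7 helicase onto origins of replication, with CDC6 and CDT1 as loaders, a step called licensing. D-type and E-type cyclins then carry the cell past the G1/S boundary, largely through E2F-driven transcription of replication genes. Genes for mitosis are expressed later, from promoters with CHR and CCAAT elements, and spermatogonial stem cells maintain themselves by such divisions.

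RNA-seq libraries held 6602089 to 8278887 counts and iSLAM-seq libraries 9419615 to 12645845. Rhox10 itself had 3 to 10 counts in WT and 4 to 11 in KO libraries, so its counts do not check the RNA-seq labels, and KO below means the libraries labelled so. In iSLAM-seq its level as CPM (counts scaled to the library size) was 0.202 to 2.42 in Ctrl and 34.0 to 46.7 in Rhox10 libraries. Germ cell markers (8 genes) summed to 201 to 216 CPM in WT and 106 to 115 in KO libraries. Stem cell markers (8 genes) summed to 139 to 152 and 57.7 to 63.3 CPM. Peritubular and stromal markers (7 genes) summed to 321 to 339 and 492 to 515 CPM. Erythroid markers (8 genes, Slc4a1 at 0 in WT) summed to 1.36 to 4.07 and 78.9 to 88.1 CPM. These values move with the RNA-seq comparison, and their part in the results below was not tested. In bulk samples fewer cells of a type and less RNA per cell cannot be told apart.

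In RNA-seq, 18 of the 39 genes fell and 1 rose in KO relative to the median gene, while 20 did not pass the test. The test was edgeR's quasi-likelihood test, adjusted over all genes tested, with calls at an adjusted p under 0.05. Of all 13538 genes tested, 18.9% fell and 18.6% rose. The median log2 fold change of the 39 was -0.21, against 0.003 over all genes, and 31 of 39 were below 0. Summed over the 39 genes, the WT libraries held 1333 ± 11.3 CPM and the KO libraries 1175 ± 25.1 (SD, n = 4).

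The direction is relative to the scaling. With TMM scaling the median gene was held level, whereas plain library totals moved the median gene by 0.35 on the log2 scale and left 7 of the 39 lower and 14 higher. The 7 were Mcm2, Mcm3, Mcm5, Mcm6, Ccnd1, Ccnb1 and Kif20a, and under that scaling 4.65% of all genes were lower and 53.4% higher. Library totals include Gm42418, whose share of all counts was 58.0 to 59.4% for WT and 51.0 to 52.7% for KO libraries. With every gene above 1% of any library removed, TMM scaling called the same 18 lower and 1 higher and moved the median gene by -0.002. Scaling to a germline gene list moved the median gene by 0.88, and 35 of the 39 were then higher and 0 lower, with 89.7% of all genes higher and 0.539% lower. In that last edgeR fit Ccnd1 and Mcm2 were the only members below 0, at -0.18 and -0.007, and neither passed the test at an unadjusted p under 0.05 either. The germline list itself fell in the KO libraries, with 19 of its 20 tested genes lower relative to the median gene.

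**Figure D1:**
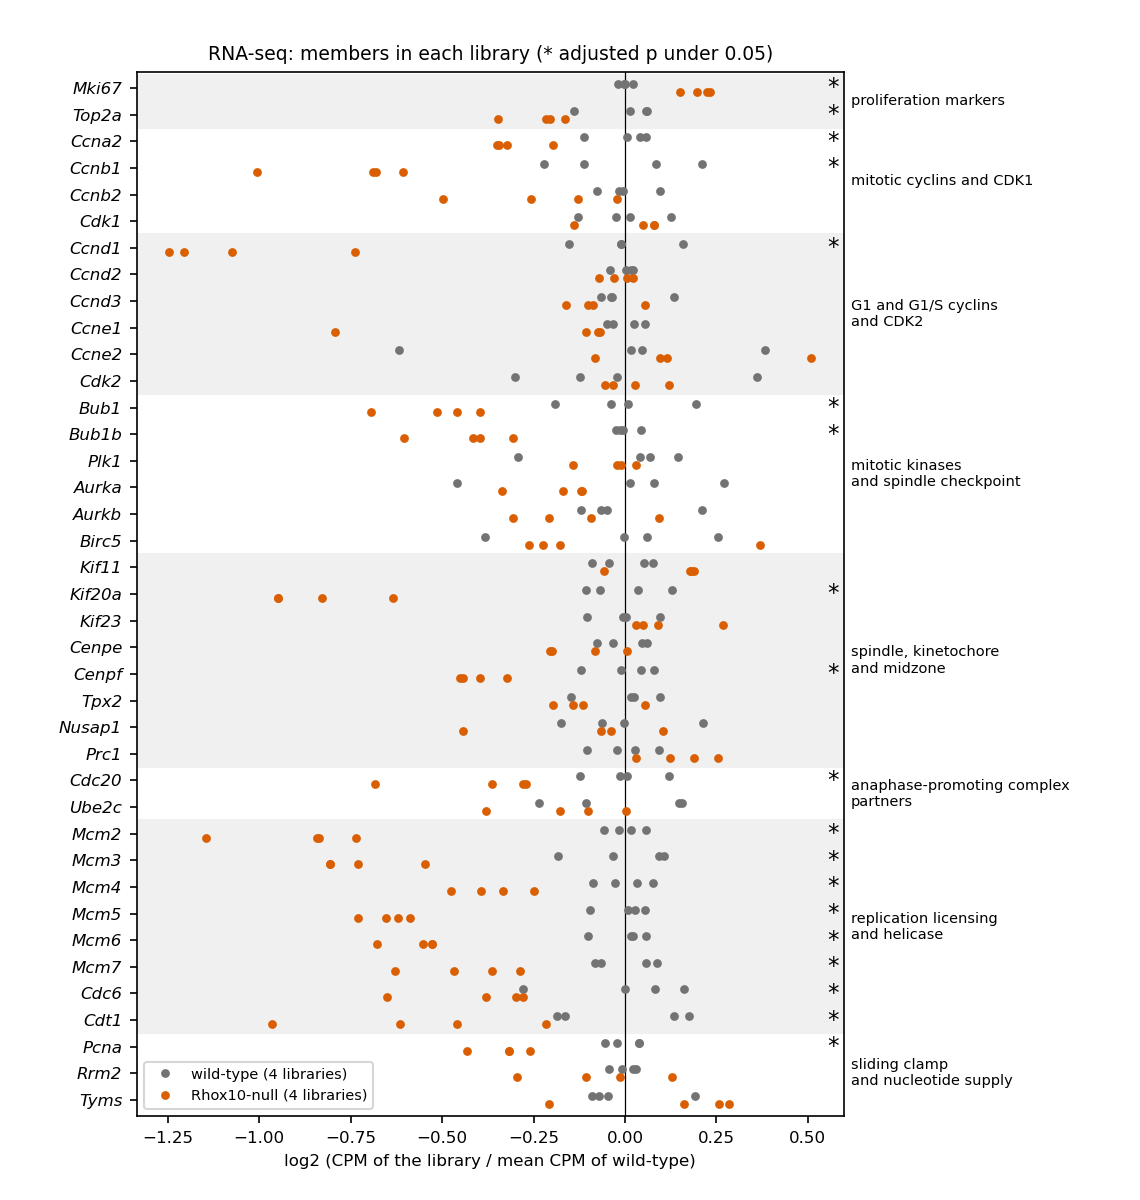
RNA-seq level of each of the 39 genes in every library, as log2 of its CPM over the WT mean (x axis), by role; grey points are WT and orange points KO libraries, and an asterisk marks an adjusted p under 0.05. The 8 licensing genes all lie left of 0 in KO with TMM scaling, between -0.36 and -0.88 as fitted; with library totals 4 of them remain lower by the test, and with scaling to the germline list none do.

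Of the replication licensing genes, 8 of 8 were lower in KO relative to the median gene, with a median of -0.54. MCM2 to MCM7 are the 6 subunits of the helicase, and their summed level was 241 ± 3.89 CPM in WT and 158 ± 6.53 in KO libraries (SD, n = 4). Mcm2 stood at 42.9, 45.1, 46.4 and 44.1 CPM in the 4 WT libraries and 25.0, 24.9, 20.2 and 26.8 in the 4 KO libraries. Every KO library lay below every WT library, and the fitted log2 fold change was -0.88 ± 0.07 (SE), with an edgeR adjusted p of 5.03e-14.

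Mcm3 stood at 45.9, 37.6, 45.4 and 41.7 CPM in WT and 29.2, 24.4, 25.7 and 24.4 in KO, without overlap (-0.71 ± 0.07, edgeR adjusted p = 4.85e-11). Mcm5 stood at 36.4, 35.7, 35.3 and 32.8 CPM in WT and 22.3, 22.8, 23.3 and 21.1 in KO (-0.64 ± 0.07, edgeR adjusted p = 2.47e-10). Its KO libraries were close to each other and all under the WT range. Mcm6 stood at 48.6, 54.3, 52.9 and 52.8 CPM in WT and 36.1, 36.2, 35.6 and 32.6 in KO, again without overlap, with the fourth KO library the lowest (-0.57 ± 0.06, edgeR adjusted p = 1.7e-10).

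The other 4 licensing genes changed less. Mcm7 fell by 0.43 and Mcm4 by 0.36 on the log2 scale. Cdt1, which brings the helicase to the origin, fell by 0.52 (SE 0.13, edgeR adjusted p = 0.00131). Its WT libraries held 10.7, 13.3, 13.7 and 10.9 CPM and its KO libraries 8.85, 6.22, 10.5 and 7.94, a gap of under 0.3 CPM between the nearest libraries of the groups. Cdc6, its partner in loading, was at 7.82, 8.74, 6.44 and 8.28 CPM in WT and 6.44, 6.36, 6.01 and 4.98 in KO. The groups overlapped (-0.40 ± 0.14, edgeR adjusted p = 0.0235), and the call was lost in DESeq2 (adjusted p = 0.116) and without WT library 2 (0.075), WT library 4 (0.0597) or KO library 4 (0.0808). Per kilobase of exon the most abundant licensing genes were Mcm3 and Mcm6 (11.4 and 11.2 CPM per kb in WT) and the least abundant was Cdc6 (1.496).

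The licensing genes also share promoter letters that played no role in choosing them. RefSeq promoters (GRCm38.p6, 250 bases before and 50 after the start) were matched for 31 of the 39 members and 27025 genes in all. The letters searched for E2F, the factor family of G1/S transcription, were TTTCCCGC, TTTGGCGC, TTTCGCGC and TTTGCCGC on both strands, which may overlap each other. They were present in 6 of the 7 licensing promoters matched (Mcm3, Mcm5, Mcm6, Mcm7, Cdc6 and Cdt1, not Mcm2) and in 8 of the 31 members (25.8%), the others being Cdk1 and Cdk2. Of all promoters, 2.6% held them. In Mcm3 and Cdt1 the letters lie just after the start. Windows around the first match in the other 4 licensing promoters are shown with the match in capitals, chosen after the counts were seen, and the Mcm6 window is part of the longer sequence given further on:
Mcm5, chr8:75109348-75109371, plus strand: ccaagaacTTTCGCGCcaaaacgt
Mcm6, chr1:128359800-128359823, minus strand: cgtatgctTTTGGCGCgaaaagtg
Mcm7, chr5:138172033-138172056, minus strand: ttcgaaccGCGGGAAAcagggtgt
Cdc6, chr11:98908005-98908028, plus strand: ggtggagaGCGGGAAAtcgcctgg
A match describes these letters only and does not show that a factor binds there.

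Proliferation markers went in opposite directions in the sorted cells. Mki67, which encodes the Ki-67 protein of dividing cells, stood at 147, 152, 149 and 149 CPM in WT and 175, 171, 166 and 176 in KO libraries. The 4 KO libraries were all above the WT libraries, and Mki67 was the only member that rose (0.20 ± 0.04, edgeR adjusted p = 0.000356). Top2a, the topoisomerase that untangles replicated chromosomes, stood at 113, 109.7, 98.5 and 113 CPM in WT and 97.0, 94.2, 85.3 and 93.4 in KO. It fell relative to the median gene without overlap of the groups (-0.23 ± 0.05, edgeR adjusted p = 0.00036), but was at 0.11 with library totals.

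Among the mitotic cyclins and CDK1, Ccnb1 and Ccna2 fell and Ccnb2 and Cdk1 did not pass the test. Ccnb1, whose product with CDK1 starts mitosis, was at 24.1, 19.5, 26.3 and 21.03 CPM in WT and 14.1, 14.2, 14.9 and 11.3 in KO (-0.72 ± 0.10, edgeR adjusted p = 5.98e-08). Ccna2, the S and G2 cyclin, went from 27.0 ± 1.40 to 21.9 ± 1.12 CPM (SD, n = 4), with a log2 fold change of -0.30 ± 0.07 that came to 0.05 with library totals. Cdk1, the kinase they share, was at 17.8 ± 1.29 and 18.03 ± 1.27 CPM (SD, n = 4), with overlapping libraries.

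Of the G1 and G1/S genes only Ccnd1 fell, and it had the lowest log2 fold change of all 39 members. Its libraries held 10.5, 9.36, 8.48 and 9.36 CPM in WT and 4.48, 3.97, 4.09 and 5.65 in KO. The groups were well apart (-1.06 ± 0.14, edgeR adjusted p = 9.64e-08), although single libraries rest on as few as 30 counts. Ccnd2, the D-type cyclin with by far the most reads, was at 248, 256, 259 and 259 CPM in WT and 259.6, 257, 250.2 and 244 in KO. These values overlapped, with a fitted difference of -0.02 ± 0.04. Per kilobase of exon in WT, Ccnd2 stood at 27.2 CPM per kb, the highest of the members, against 2.38 for Ccnd3 and 2.00 for Ccnd1. Ccne1 and Ccne2, the E-type cyclins, were the lowest at 1.25 and 1.19, and neither passed the test, nor did Ccnd3 or Cdk2.

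Mitotic kinase and spindle genes were divided. The checkpoint kinase genes Bub1 and Bub1b fell by 0.50 and 0.42 on the log2 scale (edgeR adjusted p = 1.27e-05 and 2.38e-05), each without overlap of the libraries. Plk1, Aurka, Aurkb and Birc5, which encode the polo and Aurora kinases and survivin, did not pass the test, and their fitted values lay between -0.18 and -0.04. Kif20a, a kinesin of the midzone, was at 25.9, 24.2, 22.5 and 22.0 CPM in WT and 13.3, 15.2, 12.3 and 12.2 in KO. It was lower in every KO library (-0.83 ± 0.09, edgeR adjusted p = 3.65e-10). Cenpf, a kinetochore protein gene, was at 72.6, 70.9, 63.2 and 68.2 CPM in WT and 54.9, 50.3, 52.3 and 50.6 in KO. It too was lower in every KO library (-0.40 ± 0.05, edgeR adjusted p = 1.34e-07), and with library totals it came to -0.05. Cenpe, Tpx2, Nusap1, Kif11, Kif23 and Prc1 did not pass the test, and their fitted values ran from -0.11 to 0.16. Kif11 and Prc1 came to pass it when 1 library was left out, Kif11 at 0.18 without KO library 4 and Prc1 at 0.20 without KO library 2 (edgeR adjusted p = 0.0287 and 0.0274).

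Cdc20, the activator of the anaphase-promoting complex, fell from 15.7 ± 1.10 to 12.02 ± 1.52 CPM (SD, n = 4; -0.38 ± 0.10, edgeR adjusted p = 0.00265). Ube2c, the complex's ubiquitin-conjugating enzyme, was at 10.8 ± 1.43 and 9.68 ± 1.06 CPM with overlap. Pcna, the sliding clamp of the polymerases, fell from 34.0 ± 1.08 to 27.0 ± 1.35 CPM (-0.33 ± 0.07, edgeR adjusted p = 9.4e-05), and was at 0.02 with library totals. Rrm2 and Tyms, which supply deoxynucleotides, were at -0.06 and 0.15 and did not pass the test. Pcna, Tyms, Ccnb1, Ccnb2 and Ccnd3 have annotated pseudogenes named after them, so reads of near-identical copies may be split in these 5 genes.

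In iSLAM-seq, 25 of the 39 genes were lower and 0 higher in Rhox10 than in Ctrl cells on average over the 5 times from 0.5 to 8 h, by edgeR's quasi-likelihood test. Of all 20642 genes tested, 18.4% were lower and 18.7% higher. The median log2 fold change of the 39 was -0.20, against 0.001 over all genes, and 35 of 39 were below 0. In the edgeR fit 4 of the 39 were above 0 (Cdk1, Plk1, Aurkb and Ube2c), 0 of them at an unadjusted p under 0.05, and DESeq2 also called 25 lower and 0 higher. The same 25 were called lower with library totals. Whether the deposited counts hold all reads or only those with conversions from labelled RNA is not given in the sources used here. Stem cell markers (8 genes) summed to 1718 to 2110 CPM in Ctrl and 1210 to 1466 in Rhox10 libraries. Germ cell markers (8 genes) overlapped, at 1385 to 2150 and 1575 to 1859 CPM. So did markers of differentiating spermatogonia (5 genes), at 291 to 388 and 334 to 387 CPM. Peritubular and stromal markers (7 genes) overlapped as well, at 792 to 1112 and 884 to 1445 CPM. The part of these values in the result was not tested. All 25 had the same sign at 0 h, before any inducer, and 12 of them were already called then.

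One library stood apart. Ctrl library 2 of 0.5 h lay outside the range of the 10 Ctrl libraries of other times for 25 of the 39 members (16 below, 9 above), and its partner did so for 14 (3 below, 11 above). Mcm4 was at 219 and 53.1 CPM in libraries 1 and 2 of that pair, while the other 10 Ctrl libraries ran from 198 to 240.4. The pair differed more than 2-fold in 7 members (Mcm4, Aurkb, Bub1, Cdk1, Cdk2, Bub1b and Rrm2), each lower in library 2. Of 10846 genes at the members' levels, 7.53% differed more than 2-fold within this pair, against 0.0725% to 0.325% in the other 11 pairs. Without the 4 libraries of 0.5 h, a fit added after this was seen, 32 members were lower and 1 (Plk1, 0.11) higher over 1 to 8 h, with 19.1% of genes lower and 20.3% higher. All 25 calls were among these 33, and the added ones included Mcm4 (-0.29, edgeR adjusted p = 3.31e-11), Bub1, Bub1b and Rrm2. What set this library apart was not tested.

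**Figure D2:**
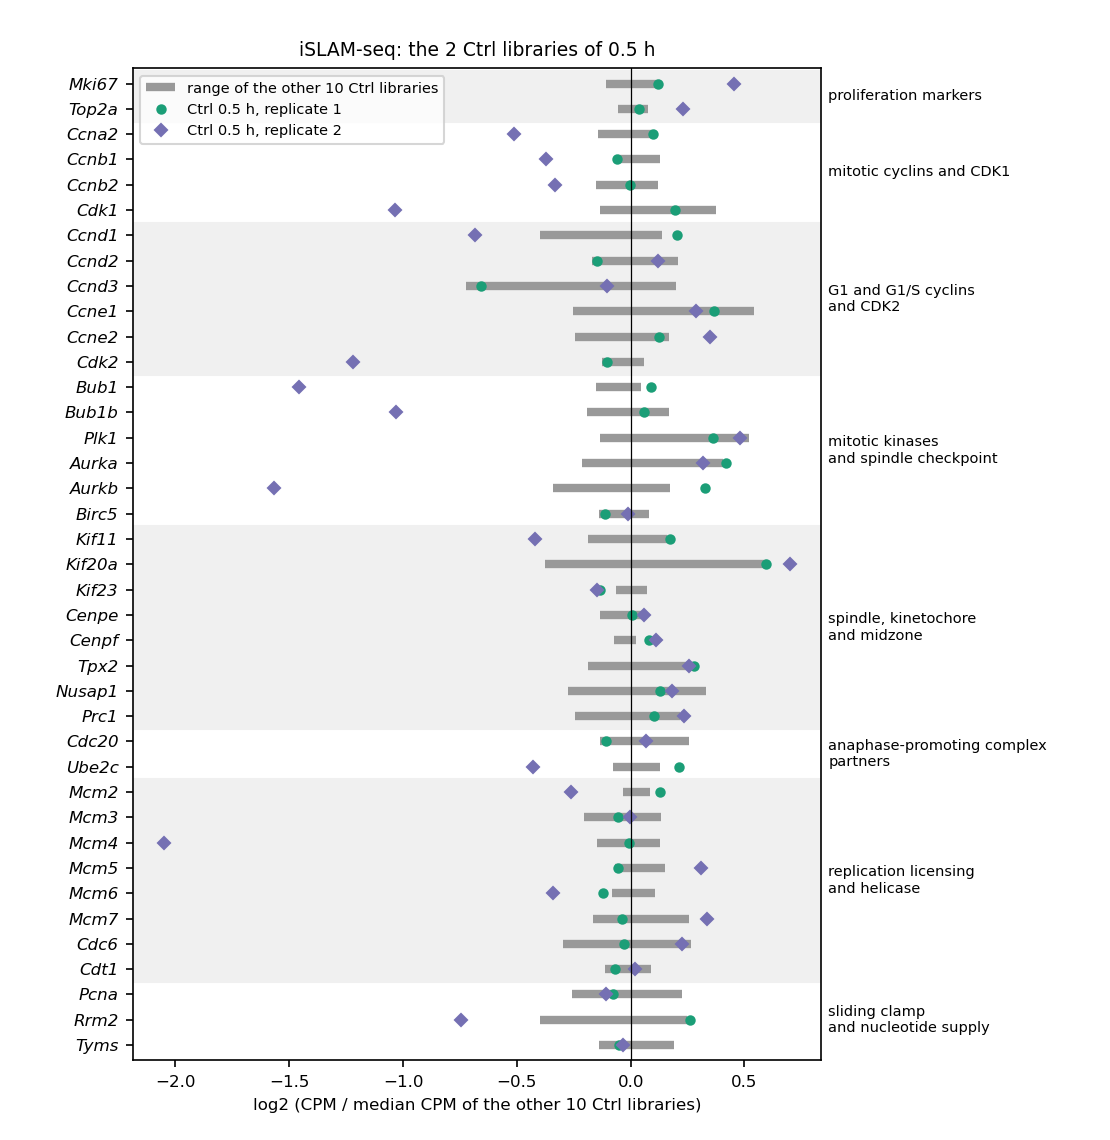
Levels in the 2 Ctrl libraries of 0.5 h, as log2 of CPM over the median of the other 10 Ctrl libraries (x axis), for each of the 39 genes; grey bars are the range of those 10 libraries. Replicate 2 (diamonds) falls outside the bar for 25 genes and replicate 1 (circles) for 14.

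By single time, the numbers of members called lower and higher in Rhox10 (edgeR) were as follows. At 0 h there were 12 lower and 0 higher, where 4.32% and 6.56% of all genes were so called. For 0.5 h the numbers were 11 and 0 (6.51% and 7.94% of genes), and for 1 h 10 and 0 (3.9% and 6%). The 2 h libraries gave 12 and 0 (3.94% and 6.08%). Those of 4 h gave 11 and 1 (5.74% and 6.47%), the latter being Plk1, and those of 8 h gave 16 and 0 (8.79% and 8.06%). Mki67, Top2a, Cenpf, Mcm3, Mcm5 and Cdt1 were lower at all 6 times. These counts rest on 2 libraries per vector. The count for 0 h was 6 without library 2 of either vector, and that for 0.5 h was 7 or 6 without Rhox10 library 1 or 2. Leaving out any of a time's own 4 libraries gave 5 or 6 members for 1 h and 6 or 7 for 2 h. Without Ctrl library 1 of 0.5 h there were 25 members called for that time, of which 10 were higher. Without Ctrl library 1 or 2 of 0.5 h the count was 16 or 17 for 1 h and 23 for 4 h.

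**Figure D3:**
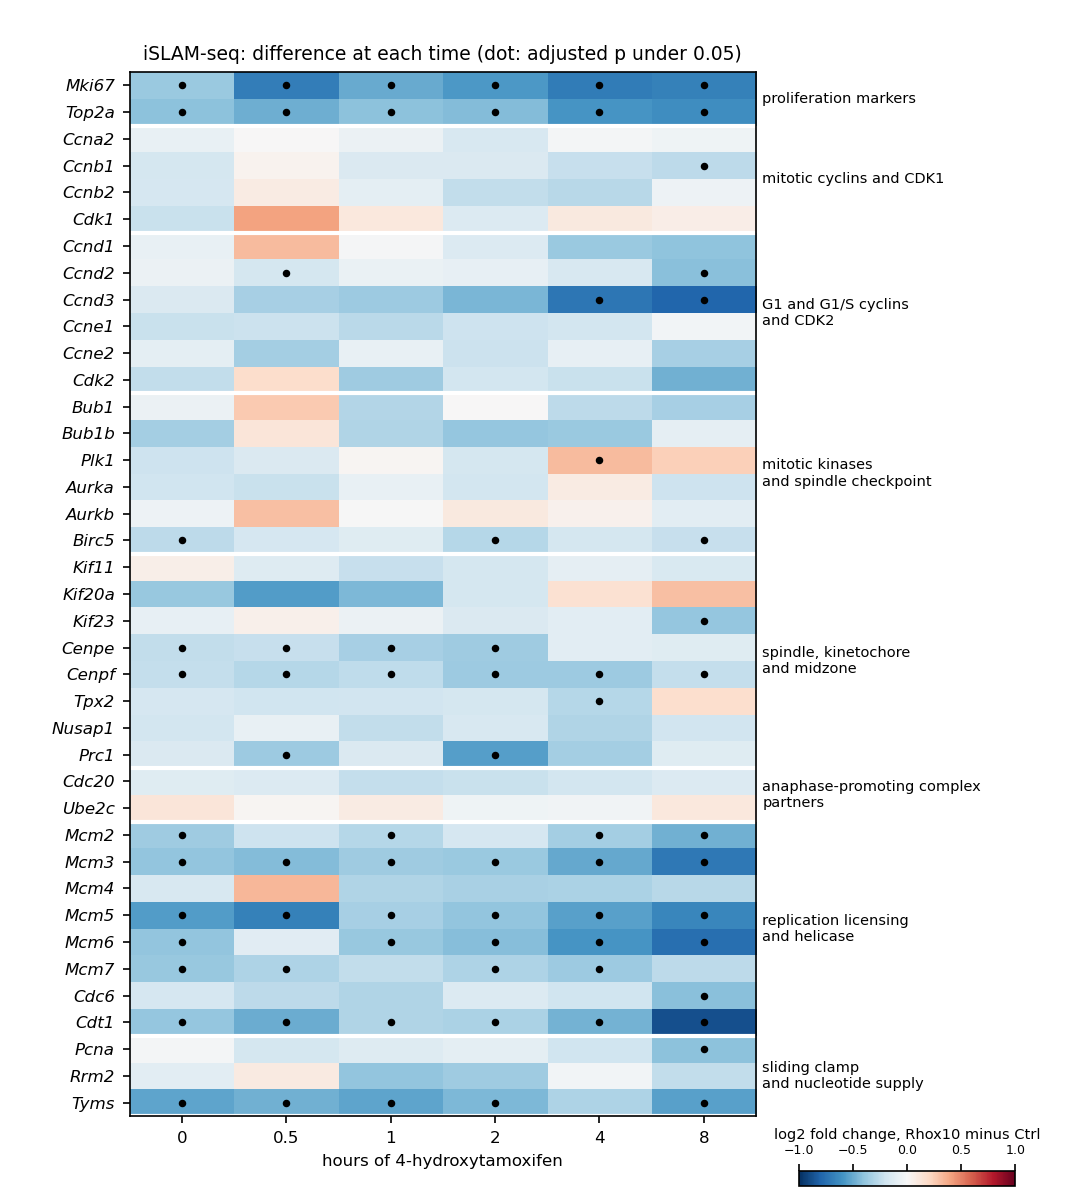
Log2 fold change of Rhox10 minus Ctrl for the 39 genes (rows, by role) at the 6 times (columns, hours of 4-hydroxytamoxifen); blue is lower in Rhox10, red higher, and a dot marks an edgeR adjusted p under 0.05. Mki67, Top2a, Cenpf, Mcm3, Mcm5 and Cdt1 have a dot in each column, and the red cells of the 0.5 h column (Cdk1 at 0.40, Mcm4 at 0.33) rest on a Ctrl pair whose libraries disagreed.

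Of the licensing genes, 7 of 8 were lower on average, and Mcm4 was not called (-0.18). Summed over MCM2 to MCM7, the lowest, median and highest of the 12 Ctrl libraries were 1926, 2069 and 2162 CPM, and those of the 12 Rhox10 libraries 1427, 1621 and 1713. The ranges did not overlap. Mcm3 had 515, 587 and 652 CPM in Ctrl (lowest, median, highest of 12) and 376, 429 and 474 in Rhox10 libraries. Every Rhox10 library was below every Ctrl library, and the averaged difference was -0.48 ± 0.03 (edgeR adjusted p = 3.1e-12). Mcm5 had 225, 236 and 293 CPM in Ctrl and 143, 167 and 195 in Rhox10, likewise apart (-0.52 ± 0.05, edgeR adjusted p = 3.51e-09).

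Mcm6 had 186, 233 and 254 CPM in Ctrl and 131, 173 and 195 in Rhox10 (-0.45 ± 0.04, edgeR adjusted p = 2.35e-08). Its ranges overlapped, the lowest Ctrl values being those of 0.5 h (217 and 186). Mcm2 had 390.3, 468 and 512 CPM in Ctrl and 333, 378 and 412 in Rhox10 (-0.30 ± 0.04, edgeR adjusted p = 1.05e-06). Mcm7 and Cdc6 were at -0.30 ± 0.04 and -0.26 ± 0.06, both called.

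**Figure D4:**
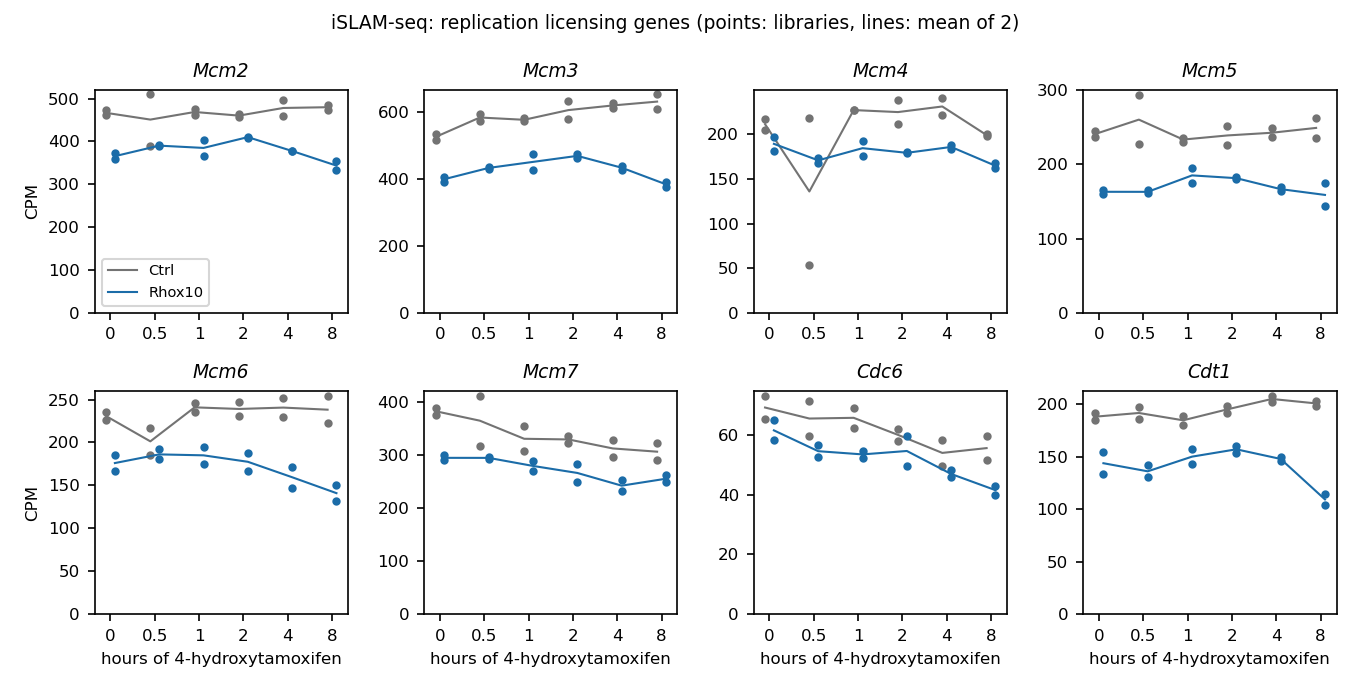
CPM of 8 replication licensing genes in iSLAM-seq (y axis, from 0) against hours of 4-hydroxytamoxifen (x axis, evenly spaced); points are single libraries and lines the mean of 2, grey for Ctrl and blue for Rhox10. Mcm3 and Cdt1 are lower in Rhox10 at every time including 0 h, and the fall of the Ctrl line of Mcm4 at 0.5 h comes from 1 library (53.1 CPM, its partner at 219).

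Both proliferation markers were lower in Rhox10. Mki67 had 264, 286 and 390.0 CPM in Ctrl and 161, 197 and 234 in Rhox10, with no overlap and its highest Ctrl value in library 2 of 0.5 h (-0.63 ± 0.04, edgeR adjusted p = 1.04e-11). Top2a had 1249, 1297 and 1522 CPM in Ctrl and 805, 966 and 1041 in Rhox10, also without overlap (-0.51 ± 0.02, edgeR adjusted p = 5.64e-14). Mki67 had the lowest averaged log2 fold change of the 39 genes, and was called lower at 0 h too (-0.37 ± 0.09).

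In the G1 and G1/S group 5 of 6 were lower, all except Ccnd1 (-0.12 ± 0.07). Ccnd3 was at -0.53 ± 0.09 (edgeR adjusted p = 7.27e-05), with 11.6 to 25.9 CPM over all 24 libraries. It was at -0.14 at 0 h, where its Ctrl libraries held 19.8 and 13.7 CPM, and at -0.79 at 8 h. That change did not pass the edgeR tests of change given below. Without the 0.5 h libraries it did not pass either (-0.64 ± 0.27, edgeR adjusted p = 0.166). Ccne1, Ccne2 and Cdk2 lay between -0.21 and -0.18. The call of Cdk2 was lost in 23 of the 24 fits that left out 1 library each (edgeR adjusted p = 0.0514 to 0.0979), and its value came to -0.08 without Ctrl library 1 of 0.5 h. That of Ccne1 was lost in 4 (edgeR adjusted p = 0.0519 to 0.0755, value to -0.13), without Ctrl library 2 of 1 h or Rhox10 library 1 of 2, 4 or 8 h. Of the mitotic cyclin genes only Ccnb1 was lower (-0.15 ± 0.04), while Cdk1 (0.11 ± 0.09), Ccna2 (-0.06 ± 0.06) and Ccnb2 (-0.12 ± 0.05) were not called.

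Among the kinases and checkpoint genes Birc5 alone was lower (-0.20 ± 0.03), with Bub1, Bub1b, Aurka, Aurkb and Plk1 not called. Of the spindle and kinetochore genes 6 of 8 were lower, all except Kif11 and Kif20a. Cenpf had 769, 815 and 873 CPM in Ctrl and 615, 669 and 731 in Rhox10. The ranges did not overlap (-0.30 ± 0.02, edgeR adjusted p = 2.24e-10). Prc1, a bundler of midzone microtubules, was at -0.30 ± 0.05, Cenpe, a kinetochore motor, at -0.23 ± 0.03, and Cdc20 at -0.18 ± 0.06. The Cdc20 call was lost in 6 of the 24 fits without 1 library (edgeR adjusted p = 0.0514 to 0.0831, value to -0.14), namely Ctrl library 1 of 2 h or 2 of 4 h, Rhox10 library 2 of 0.5 h, or Rhox10 library 1 of 2, 4 or 8 h. Tyms, thymidylate synthase, had 57.4, 62.1 and 72.1 CPM in Ctrl and 41.0, 44.5 and 52.9 in Rhox10. It was below the Ctrl range in every Rhox10 library (-0.46 ± 0.05, edgeR adjusted p = 2.86e-07), and Pcna was at -0.20 ± 0.05.

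Because the vectors differed already at 0 h, the change of that difference was tested itself, by an edgeR F-test of the 5 later times against 0 h. It passed for 3 of the 39 genes, Cdt1, Plk1 and Ccnd2 (edgeR adjusted p = 0.0315, 0.0392 and 0.0418), where 2.39% of all genes passed. The contrast of 8 h with 0 h alone passed for Ccnd2 and Cdt1, both towards lower in Rhox10, where 1.7% of genes passed in that direction and 0.872% in the other. These calls are fragile: of the 24 fits that left out 1 library each, 21 kept 0 or 1 gene in the F-test and 17 kept 0 or 1 in the contrast, while leaving out Ctrl library 1 or 2 of 0.5 h gave 22 and 12 genes in the F-test and 10 in the contrast. Without all 4 libraries of 0.5 h, 12 members passed the F-test (7.35% of genes) and 10 the contrast (6.65% of genes, 4.24% lower and 2.42% higher), where Mcm3 (-0.31), Mcm6, Mki67, Top2a, Kif23 and Ccnd1 were also lower and Plk1 and Tpx2 higher.

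Cdt1 in Ctrl libraries 1 and 2 stood at 185 and 191 CPM at 0 h and 203 and 198 at 8 h. In Rhox10 libraries it stood at 154 and 133 CPM at 0 h and at 115 and 104 after 8 h. The 8 h libraries were the lowest of all, and the difference went from -0.39 ± 0.08 at 0 h to -0.88 ± 0.08 at 8 h, a change of -0.49 ± 0.12 (edgeR adjusted p = 0.0218). Library totals gave -0.42 with an adjusted p of 0.0591.

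Ccnd2 rose in Ctrl cells, from 2404 and 2483 CPM at 0 h to 3061 and 3128 at 8 h. In Rhox10 cells it was at 2365 and 2325 CPM before and 2312 and 2319 CPM after 8 h. At 4 h it stood above the start in both, with 2873 and 2906 CPM in Ctrl and 2578 and 2597 in Rhox10 libraries. The vectors were close at 0 h (-0.06 ± 0.05) and apart at 8 h (-0.42 ± 0.05), a change of -0.36 ± 0.08 (edgeR adjusted p = 0.00947). Plk1 went the other way. Its Ctrl libraries held 145 and 162 CPM at the start and 103 and 103 after 4 h. Its Rhox10 libraries held 133 and 132 CPM at the start and 122 and 134 after 4 h. Rhox10 was below Ctrl at 0 h, where the difference was not called (-0.21 ± 0.09). It was above Ctrl at 4 h (0.32 ± 0.09, edgeR adjusted p = 0.0214).

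Levels also moved over time within each vector. From 0 to 8 h in Ctrl cells, Ccnd2 (0.34) and Mcm3 (0.26) rose and Ccne1 (-0.72), Ccnd1, Nusap1, Plk1 and Tpx2 fell, 2 and 5 of 39 genes by edgeR, where 3.84% and 2.68% of all genes did so. In Rhox10 cells 0 rose and 8 fell, namely Ccnd1 (-0.84), Rrm2 (-0.72), Cdc6 (-0.57), Ccne1, Nusap1, Cdt1, Mki67 and Top2a, where 3.12% of genes rose and 4.06% fell. Ccnd1, Ccne1 and Nusap1 fell in both vectors. Leaving out 1 library took the count for Ctrl from 7 to 2 (without Ctrl library 2 of 8 h), 3 or 4 (without Ctrl library 1 or 2 of 0 h) or 14 (without either Ctrl library of 0.5 h). For Rhox10 it went from 8 to 2 (without Rhox10 library 1 of 0 h), 4 or 5 (without Rhox10 library 1 or 2 of 8 h), 15 or 14 (without Ctrl library 1 or 2 of 0.5 h).

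Side by side, 12 members were lower both in KO cells (relative to the median gene) and in Rhox10-expressing cells: Mcm2, Mcm3, Mcm5, Mcm6, Mcm7, Cdc6, Cdt1, Pcna, Top2a, Ccnb1, Cenpf and Cdc20. Among 12562 genes tested in both assays, 989 (7.87%) had this pair of calls. The iSLAM-seq calls of these 12 members were among the 25 that had the same sign at 0 h, before any inducer. Of the 12 only Cdt1 passed the F-test of change from 0 h, a call that was fragile. Cdc6 in RNA-seq and Cdc20 in iSLAM-seq lost their calls in the fits named for them above. The RNA-seq calls of the 12 also depend on the scaling. With library totals only Mcm2, Mcm3, Mcm5, Mcm6 and Ccnb1 among them stayed lower by the test. Top2a and Pcna then came to 0.11 and 0.02. With scaling to the germline list none of the 12 was lower. With TMM scaling Mki67 alone was called in opposite directions, higher in KO and lower in Rhox10. Another 12 were lower in iSLAM-seq only by the test, 6 in RNA-seq only (Ccna2, Ccnd1, Bub1, Bub1b, Kif20a and Mcm4), and 8 in neither (Ccnb2, Cdk1, Plk1, Aurka, Aurkb, Kif11, Ube2c and Rrm2). The cells, the controls and the part of the transcript read differed between the assays, so no test was made across them.

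**Figure D5:**
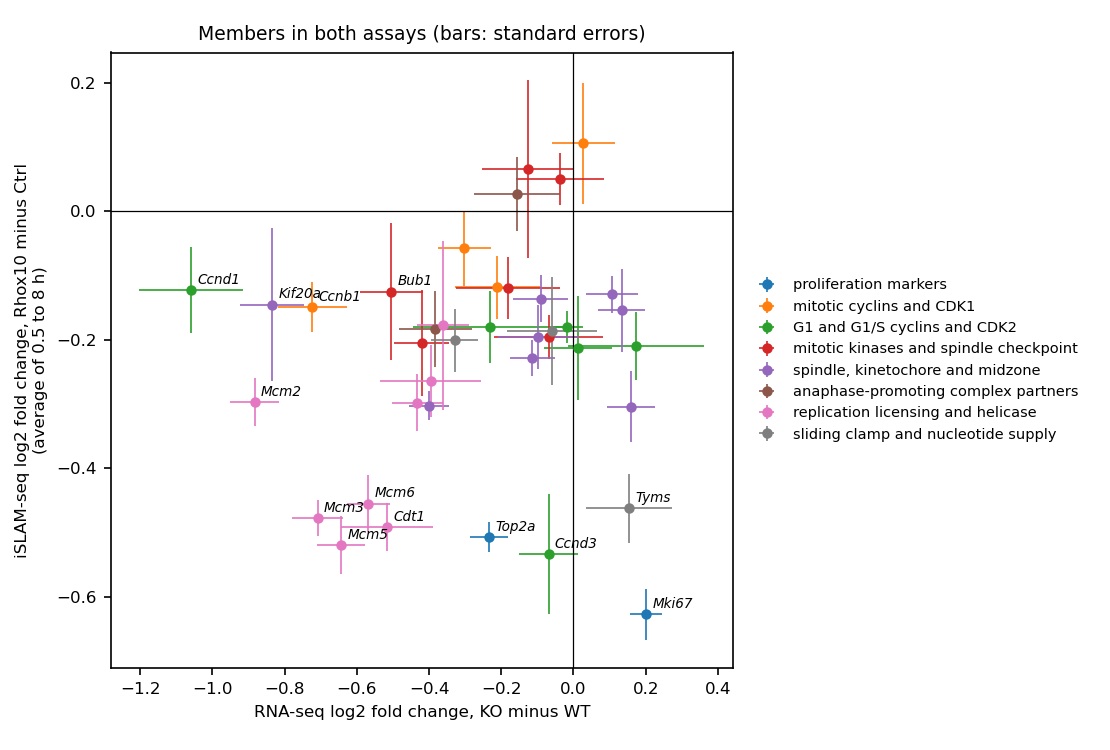
Log2 fold change in RNA-seq (KO minus WT, x axis, TMM scaling) against iSLAM-seq (Rhox10 minus Ctrl averaged over 0.5 to 8 h, y axis) for the 39 genes, coloured by role, with bars of 1 standard error. All 8 licensing genes lie in the lower left quadrant, Mcm4 without a call in iSLAM-seq, and Mki67 lies in the lower right. Scaling RNA-seq to library totals or to the germline list moves all points to the right together, by 0.35 or 0.88 at the median gene. DESeq2 size factors move the median gene by -0.01.

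RHOX10 peaks lay near 16 of the 39 genes (41%), counted within 3 kb of the start site by the authors' annotation, and each of these was within 252 bases of it. The share was 27.3% of all genes tested in RNA-seq and 19.8% in iSLAM-seq, and 31.2% and 30.7% among genes at levels within the members' range. Peak scores are the authors' own and serve only to rank peaks. Only 2 of the 8 licensing genes had one, Mcm6 (score 309.8, chr1:128359394-128359953, promoter) and Mcm5 (89.2, chr8:75109149-75109801, promoter). Within 3 kb of a start the highest score of the members was at Kif23 (388, chr9:61946302-61946970, first exon in the 5′ UTR), a midzone kinesin. Cenpf (277, chr1:189687961-189688525, promoter), Ccna2, Kif20a, Cdk2, Ccnb1, Ccne1, Mki67, Ccnd3, Ube2c, Bub1, Rrm2, Bub1b and Cenpe were the others. Farther out, the authors' annotation assigned an intergenic peak to Ccne1, 22432 bases from its start and with a higher score (518.6), and one to Cenpf, 59734 bases away (score 24). The Kif20a peak also lies within 1 kb of the start of Brd8, the Cdk2 peak of Pmel and the Ube2c peak of Gm11457. Of the members lower in RNA-seq 8 of 18 had a peak, and of those not called 7 of 20. Of those lower on average in iSLAM-seq 10 of 25 had one, and of those not called 6 of 14. A score above the median of all 5147 peaks (127.5) was held by 10 of the 16, whose own median score was 178.8.

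The bases just before the start sites of 4 high-ranked members with a RefSeq promoter are given, as chosen by peak score, as far as they hold no exon, up to 200 bases, to show which letters sit under or beside the peaks (GRCm38.p6). Capitals mark E2F letters, the CHR letters TTTGAA or CCAAT on either strand:
Kif23, chr9:61946800-61946999, minus strand: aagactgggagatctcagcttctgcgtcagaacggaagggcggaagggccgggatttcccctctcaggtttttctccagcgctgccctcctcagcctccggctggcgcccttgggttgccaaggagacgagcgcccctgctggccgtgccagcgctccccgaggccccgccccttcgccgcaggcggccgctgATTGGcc
Mcm6, chr1:128359706-128359905, minus strand: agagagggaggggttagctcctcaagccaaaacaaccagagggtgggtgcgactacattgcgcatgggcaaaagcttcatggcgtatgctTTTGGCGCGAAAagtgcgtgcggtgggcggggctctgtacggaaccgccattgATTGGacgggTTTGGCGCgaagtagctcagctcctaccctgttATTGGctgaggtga
Cenpf, chr1:189688087-189688286, minus strand: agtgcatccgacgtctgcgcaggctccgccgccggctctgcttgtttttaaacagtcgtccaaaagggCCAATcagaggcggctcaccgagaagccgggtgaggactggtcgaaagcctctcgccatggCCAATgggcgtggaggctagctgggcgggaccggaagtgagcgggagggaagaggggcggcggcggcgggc
Cdk2, chr10:128705052-128705179, minus strand: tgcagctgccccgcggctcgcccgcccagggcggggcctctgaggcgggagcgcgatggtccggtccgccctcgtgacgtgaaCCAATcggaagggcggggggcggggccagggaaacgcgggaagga
The Mcm6 sequence holds 3 matches of E2F letters, a pair of which overlap, and 2 of CCAAT, and it lies wholly inside the peak. Cenpf holds 2 CCAAT matches and the Kif23 and Cdk2 stretches 1 each. TTTGAA was not among these bases.

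Over the full windows of the 31 promoters, TTTGAA occurred in 14 (45.2%) and CCAAT in 25 (80.6%), against 20.2% and 41.1% of all promoters. The proliferation markers and mitotic groups held TTTGAA in 13 of 18 promoters and E2F letters in 1, while the licensing genes held them in 1 and 6 of 7. TAATTA, the core that homeodomain proteins commonly prefer, occurred in 0 of the 31 and in 6.12% of all promoters. That its letters are not in these windows says nothing about RHOX10. Ccna2, Ccnd1, Ccnd2, Ccne2, Aurkb, Kif20a, Tpx2 and Mcm4 were not matched.

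Of 120 further cell cycle genes in 9 lists, 119 were tested in each assay. In RNA-seq 43 fell and 8 rose in KO relative to the median gene (median -0.18), and with iSLAM-seq averaged over 0.5 to 8 h 66 were lower and 8 higher in Rhox10 (median -0.20), by edgeR. Over all genes tested 18.9% fell and 18.6% rose in RNA-seq, and 18.4% were lower and 18.7% higher in iSLAM-seq. These shares are given beside the counts as description only, since the lists were chosen with earlier results of these data known. The iSLAM-seq averages of these lists include any difference already present at 0 h. Of all genes, 2.39% passed edgeR's F-test of change from 0 h. In the lists, 1 of the 10 CDK regulators tested did so, and no gene of any other list. For the members that test was fragile, as given above. Replication fork genes were lower in 11 of 23 cases in RNA-seq and in 18 of 23 in iSLAM-seq, with none higher in either. Rpa2, a subunit of the single-strand binding protein, went from 16.6 ± 2.11 to 8.58 ± 1.35 CPM in KO (SD, n = 4; -0.96 ± 0.11, edgeR adjusted p = 5.94e-09). In iSLAM-seq it was at -0.57 ± 0.03 (edgeR adjusted p = 2.13e-12). Lig1, the ligase of lagging strands, had the smallest p of the fork genes in iSLAM-seq (-0.61 ± 0.03, edgeR adjusted p = 1.47e-12), and Pold1, a catalytic polymerase subunit, fell by 0.80 in KO.

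Origin firing genes were lower in 7 of 17 cases in RNA-seq (Orc1 at -0.78, Cdc45 at -0.63) and in 8 of 17 in iSLAM-seq (Mcm10 at -0.59, Topbp1 at -0.34). Cohesin and condensin genes were lower in 4 and higher in 3 of 15 in RNA-seq (Smc3 at -0.46, Ncapd2 at -0.33) and lower in 13 of 15 in iSLAM-seq (Smc4 at -0.39, Rad21 at -0.30). Subunits and regulators of the anaphase-promoting complex were lower in 6 and higher in 1 of 15, and lower in 9 of 15. Checkpoint and kinetochore genes were lower in 4 and higher in 1 of 12, and lower in 7 of 12 (Ndc80 at -0.38). CDK regulators were lower in 4 and higher in 1 of 11 in RNA-seq, and lower in 5 and higher in 1 (Cdk6, 0.38) of 10 tested in iSLAM-seq. The inhibitory kinase gene Wee1 was lower in both (-0.36 and -0.42).

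Of the CDK inhibitors, 5 of 7 were higher in Rhox10 and 0 lower in the iSLAM-seq average, while 0 of the 7 passed edgeR's F-test of change from 0 h. Cdkn1a, which encodes p21, had 498 to 652 CPM in the 10 Ctrl libraries of 0.5 to 8 h and 989.8 to 1248 in the Rhox10 libraries. The ranges did not overlap (0.92 ± 0.02, edgeR adjusted p = 8.92e-19). Cdkn2a, which encodes p16 and p19ARF, was at 0.64 ± 0.07. In RNA-seq Cdkn2a fell (-1.23 ± 0.28) and Cdkn1c rose (0.98 ± 0.15) in KO, and the other 4 tested did not pass. Both rest on few reads. Cdkn2a was at 3.37 to 4.92 CPM in WT and 0.269 to 2.51 in KO libraries, and Cdkn1c at 3.53 to 5.02 and 7.75 to 8.17.

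Of the transcription factors, E2f2 rose in KO from 1.94 ± 0.674 to 4.55 ± 1.41 CPM (SD, n = 4; 1.25 ± 0.25, edgeR adjusted p = 8.64e-05) and was lower in Rhox10 cells (-0.87 ± 0.07, edgeR adjusted p = 4.17e-10). Tfdp1, the DNA-binding partner of E2F proteins, fell in KO (-0.56 ± 0.08). Mybl2, the B-Myb gene, was lower in both (-0.53 ± 0.12 and -0.63 ± 0.09), and so was Foxm1 (-0.37 ± 0.08 and -0.14 ± 0.04), a driver of mitotic genes. In all, E2F and pocket protein genes were lower in 3 and higher in 1 of 13 in RNA-seq, and lower in 4 and higher in 2 of 13 in iSLAM-seq.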

How the data were processed

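The 39 members and all gene lists were chosen with earlier results of these data known. The authors deposited unnormalised counts, with a row for each gene and a column for each library, in both gene tables. RNA-seq was made with STAR 2.5.2b, Subread and featureCounts on GRCm38, per the submitters' processing notes, which also name DESeq2. For iSLAM-seq these notes name limma 3.42.2 and mm10. Its aligner, and whether all or only converted reads were counted, are not given in the sources used here. Bowtie2 2.2.5, SAMtools and HOMER are named for CUT&Tag (mm10), and the peak score in the table the authors deposited is theirs. The tables held 0 further numeric sample columns.

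Counts were fitted over all genes with edgeR 4.0.16 (R 4.3.3, limma 3.58.1; TMM, filterByExpr, quasi-likelihood test, Benjamini-Hochberg). RNA-seq was fitted with genotype alone, and iSLAM-seq with 12 group means. A standard error is the absolute log2 fold change over the square root of F. CPM use TMM library sizes. Scripts were tested on simulated data. Alternatives included DESeq2 1.42.0. The labels call the iSLAM-seq libraries biological replicates and the RNA-seq libraries pools of animals. Named genes are Mki67, Top2a, up to 4 members of smallest p per direction and assay, up to 6 that changed from 0 h, up to 2 of opposite sign and 2 genes per pathway list. Other members are named for completeness, after their values were seen. Correlations of same-numbered libraries' deviations lay between -0.019 and 0.014 (RNA-seq) and between -0.059 and 0.057 (iSLAM-seq). No replicates agreed within sampling noise.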

Additional observations from a re-analysis of the deposited data

Results flagged for a closer look

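In 8 of 78 groups of 4 RNA-seq values, 1 library stood farther from the others than Dixon's 95% limit for 4 samples, where chance gives about 3.9. The gap as a share of the range was 0.831 for Ccna2 in KO (library 3 at 23.6 CPM, the others from 21.2 to 21.6), 0.841 for Cdk1 in KO (library 4 low, at 16.1), 0.861 for Ccnd3 in WT (library 3 high, at 22.9) and 0.933 for Ccne1 in KO (library 3 low, at 1.92). It was 0.892 for Birc5 in KO (library 2 high, at 9.14), 0.955 for Kif11 in KO (library 4 low, at 32.2), 0.836 for Mcm6 in KO (library 4 low, at 32.6) and 0.862 for Tyms in WT (library 3 high, at 11.4). KO library 4 gave 3 of the 8.

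The difference between Rhox10 and Ctrl at the later times departed from that at 0 h, by edgeR's F-test of that change, for Cdt1 (adjusted p = 0.0315), Plk1 (0.0392) and Ccnd2 (0.0418). Between 0 and 8 h alone it changed for Ccnd2 (edgeR adjusted p = 0.00947) and Cdt1 (0.0218), by -0.36 and -0.49 on the log2 scale. Of the 24 fits that left out 1 library each, 16 lost the 0 to 8 h call of Cdt1, with values from -0.54 to -0.35. That of Ccnd2 was lost in 7, with values from -0.35 to -0.31. The F-test calls were fragile too, as given above.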

How the results depend on the processing

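Counts of called members kept within 1.5 times of their main values under DESeq2, DESeq2 size factors, a mean CPM of at least 1 and the replicate block, for every comparison. The labels give the groups shared replicate numbers; with the replicate block RNA-seq called 19 members, the iSLAM-seq average 25, 0 h 12, the F-test of change 3, and no named call was lost. Same-numbered libraries did not deviate together. A log2 fold change of at least 1 left 1 member in RNA-seq and 0 in each iSLAM-seq comparison (at an adjusted p under 0.05 alone the counts are those given above). Scaling to the germline list gave 35 calls in RNA-seq. Members changing from 0 h came to 1 with library totals and 7 with no filter on low counts, those changing from 0 to 8 h to 1 with no filter, and those changing in Ctrl to 11 with no filter. Without the 0.5 h libraries the counts were 16 at 1 h, 22 at 4 h, 12 changing from 0 h, 10 changing from 0 to 8 h, and 14 changing within each vector. Peaks above the median score left 10 members. Why these counts moved was not tested, except that the added fold limit only removes calls. Leaving out 1 library gave 18 to 20 members in RNA-seq. In iSLAM-seq it gave 22 to 34 on average, 6 to 17 at 0 h, 6 to 25 at 0.5 h, 5 to 17 at 1 h, 6 to 18 at 2 h, 8 to 23 at 4 h and 11 to 24 at 8 h. It gave 0 to 22 changing from 0 h, 0 to 10 from 0 to 8 h, 2 to 14 within Ctrl and 2 to 15 within Rhox10. The highest values all came without a Ctrl library of 0.5 h, and without any of the other 22 the ranges were narrower: 22 to 25 on average, 0 to 2 changing from 0 h and 0 to 2 from 0 to 8 h.

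Log2 fold changes of RNA-seq turned from negative to positive with library totals in 16 members. In 9 of them, called in at least 1 of the fits compared, the values were then Top2a 0.11, Ccna2 0.046, Ccnd2 0.33, Ccnd3 0.28, Plk1 0.31, Cenpe 0.23, Tpx2 0.26, Pcna 0.019 and Rrm2 0.29, and in 7 called in neither they were Ccnb2 0.14, Ccne1 0.12, Aurka 0.16, Aurkb 0.22, Birc5 0.28, Nusap1 0.25 and Ube2c 0.19. With the germline list 29 turned, and were Top2a 0.64, Ccna2 0.58, Ccnb1 0.15, Ccnb2 0.66, Ccnd2 0.86, Ccnd3 0.81, Ccne1 0.64, Bub1 0.37, Bub1b 0.46, Plk1 0.84, Aurka 0.69, Aurkb 0.75, Birc5 0.81, Kif20a 0.041, Cenpe 0.76, Cenpf 0.48, Tpx2 0.79, Nusap1 0.78, Cdc20 0.49, Ube2c 0.72, Mcm3 0.17, Mcm4 0.51, Mcm5 0.23, Mcm6 0.31, Mcm7 0.44, Cdc6 0.48, Cdt1 0.36, Pcna 0.55 and Rrm2 0.82. Members called in neither fit also changed sign when 1 library was left out, 6 in RNA-seq and 4 in the iSLAM-seq average, and Cdk2 did so in RNA-seq with DESeq2 size factors. In iSLAM-seq the average of Mcm4 reversed to 0.10 without Ctrl library 1 of 0.5 h, and was -0.31 without library 2. In RNA-seq the members had 16 to 2377 counts per library and in iSLAM-seq 55 to 32125. The largest standard errors were those of Ccne1 and Ccne2 in RNA-seq (0.21 and 0.19) and of Aurkb and Mcm4 in the iSLAM-seq average (0.14 and 0.13).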
